A study of Mus musculus with 12 samples.

Results

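The genes described here are 49 mouse genes of the lysosome and of autophagy, taken by name from a list of 6 classes among the 55335 genes counted in both tables. The classes are 21 acid hydrolases, the 2 genes of the saposin and granulin precursors, 7 genes of lysosomal membrane proteins and lipid transport, 6 subunits of the proton pump, 10 autophagy genes and the 3 MiT transcription factors. All 49 were found by symbol in both tables. The libraries come from CT26, a mouse colorectal cancer line, in 4 groups of 3. Midostaurin tumors were subcutaneous CT26 tumors given midostaurin, a drug that blocks several kinases, at 40 mg/kg from day 7 after inoculation for 2 weeks, and vehicle tumors were given vehicle. Midostaurin cells were CT26 cells, of genotype WT per the labels, grown in DMEM with serum and held in 1 µM midostaurin for 48 h, and DMSO cells were treated with DMSO. The strain, sex and age of the host mice are not given in the labels, and neither is whether the 3 samples of a group were separate cultures or animals. The p-values therefore measure the spread between these samples, which may be technical.

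Lysosomes break down proteins, lipids, glycans and whole organelles with hydrolases that work at acid pH. The vacuolar proton pump, a membrane sector called V0 joined to an ATP-splitting sector called V1, makes the lumen acid, and Npc2 and Npc1 pass the freed cholesterol out. Autophagy wraps cytoplasm in a membrane decorated with LC3 and GABARAP proteins and delivers it to the lysosome. Tfeb, Tfe3 and Mitf bind E-box sequences ahead of many of these genes and can raise them together when nutrients are short or lysosomes are stressed. In tumors the same genes are read from the cancer cells and from infiltrating cells, macrophages above all, which are rich in lysosomes.

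The E-box core CACGTG, bound by these factors, was looked for in the promoters of the 49 genes, read from RefSeq (build GRCm38.p6, 250 bases before to 50 after each gene start). Of the 49 genes, 41 matched an entry, with 49 promoter windows. Ctsb, Atp6v1b2, Npc1, Ctsh, Atp6v1h, Asah1, Map1lc3a and Becn1 had no entry. The core was present in 13 of the 49 windows (26.5%), against 7.15% of all 32851 windows of the same length. Searched on both strands, the longer form TCACGTG, which contains the core, was present in 12 of them (24.5%), against 3.77% of all windows, and the related TCATGTG in 6 (12.2%), against 3.77%. By class the core stood in 8 of 19 windows of hydrolases, 3 of 7 of the membrane class, 2 of 4 of the proton pump and none of the 8 windows each of autophagy genes and MiT factors. The median GC content was 56.7% in the windows of the 49 genes and 52.7% in all windows. Stretches of 4 promoters are shown because their genes carry the core and recur in the results. All are written 5′ to 3′ on the strand of the gene, and capitals mark the core. They lie ahead of the RefSeq starts used here for Lamp1 (chr8:13159075-13159160, plus strand), Mcoln1 (chr8:3500423-3500504, plus strand), Gla (chrX:134601169-134601255, minus strand) and Ctsa (chr2:164833736-164833772, plus strand). In GENCODE, Ctsa starts earlier, at 164832873, so its stretch lies inside that gene model. Mcoln1 starts there at 3500457, so its stretch crosses that start.
Lamp1: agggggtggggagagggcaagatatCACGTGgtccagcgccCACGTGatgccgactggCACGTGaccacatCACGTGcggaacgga
Mcoln1: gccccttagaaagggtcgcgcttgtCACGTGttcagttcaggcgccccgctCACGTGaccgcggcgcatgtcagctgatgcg
Gla: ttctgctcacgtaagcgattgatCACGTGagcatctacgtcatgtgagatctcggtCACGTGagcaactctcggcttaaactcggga
Ctsa: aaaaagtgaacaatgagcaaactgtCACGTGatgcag
The core occurs 4 times in the Lamp1 stretch, in 2 copies each in those of Mcoln1 and Gla, and once in that of Ctsa. A match describes these letters alone and does not show that a factor binds there.

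Tumor libraries held 33399701 to 48109497 counts and cell libraries 34787389 to 38144039. Levels are given as CPM, each library's counts scaled to a common total, on one scale over the 12 libraries. The table numbers the midostaurin tumors 2 to 4. Some libraries stood apart before any comparison. The 2 cell libraries numbered 1, one of each treatment, differed from those numbered 2 and 3. Midostaurin tumor 3 had 725 CPM summed over 11 neutrophil markers, where the other tumors had 19.6 to 62.6. Vehicle tumor 2 had 689 CPM summed over 3 skin keratins, where the other tumors had 1.37 to 1.59. Summed over 17 macrophage markers, the tumors had 710, 1612 and 1369 CPM with midostaurin and 2447, 1703 and 2810 CPM with vehicle. In cells the same sum was 7.23 to 28 CPM, with 7 to 10 of the 17 genes at 0. Of the carcinoma markers, Krt18 measured 22.7 to 29.6 CPM in cells and Krt8 0.272 to 1.03 CPM. Epcam was at 0 in all 6 cell libraries and Cdh1 in all but DMSO cell 2, which had 0.109 CPM.

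Between midostaurin and vehicle tumors, the genes of the proton pump, the lysosomal membrane, autophagy and the MiT factors mostly had higher values with the drug, while the values of many hydrolases and of Grn were lower. None of the 49 genes passed an adjusted p of 0.05 with edgeR, where 5 of all 16094 genes tested were called higher (0.0311%) and 2 lower (0.0124%), and none passed with limma-voom (0.0994% of all genes). At an unadjusted p below 0.05 there were 20 genes higher and 6 lower, against 10.5% and 9.43% of all genes (19.9% in either direction). DESeq2, on the same counts, called 12 higher and 4 lower, against 5.43% and 3.56% of all genes (8.99% in either direction). The 2 groups did not overlap for 19 genes that were higher and 6 that were lower, against 13.1% and 14.1% of all genes (27.2% in either direction). In all, 32 of the 49 had a fold change above 0, against 47.9% of all genes. The median log2 fold change was 0.14 over the 49 genes and -0.01 over all genes tested.

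**Figure D1:**
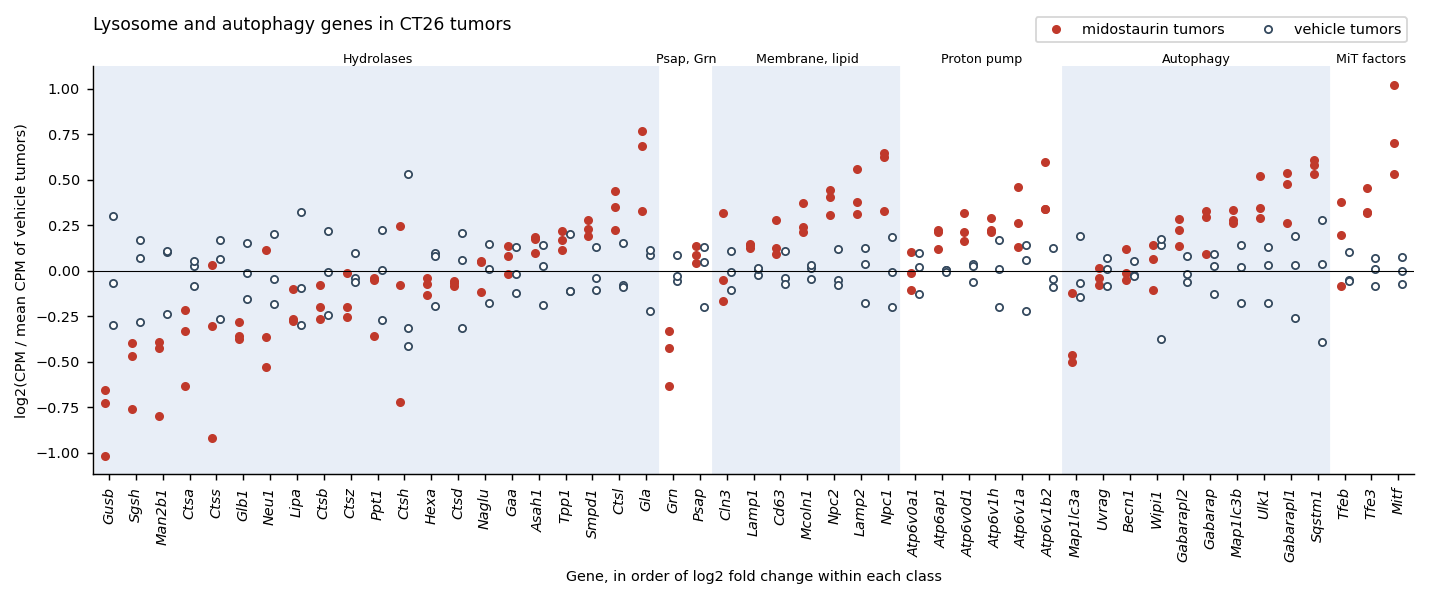
CPM of each of the 49 genes in the 3 midostaurin tumors (filled) and the 3 vehicle tumors (open), as log2 of the ratio to the mean of the vehicle tumors, by class. All 7 membrane genes and all 6 proton pump genes had a fitted fold change above 0, and 14 of the 21 hydrolases had one below 0. Of all 16094 genes, 7711 lay above 0 and 8383 below.

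Of the 21 hydrolases, 14 were lower and 7 higher, where 8383 of all 16094 genes were lower. Their median log2 fold change was -0.14, against -0.01 over all genes. That median moved with single libraries: it was -0.02 without vehicle tumor 1, -0.25 without vehicle tumor 2, -0.07 without midostaurin tumor 2 and -0.21 without midostaurin tumor 3. At an unadjusted p below 0.05 there were 3 higher and 5 lower, against 10.5% and 9.43% of all genes. DESeq2 called 2 higher and 3 lower, against 5.43% and 3.56% of all genes. Gusb (ENSMUSG00000025534, mm10 chromosome 5, 129989011 to 130003049), which encodes beta-glucuronidase, measured 43.0, 52.7 and 55.3 CPM in midostaurin tumors and 107, 70.8 and 83.2 CPM in vehicle tumors. Every midostaurin tumor lay below every vehicle tumor, and the log2 fold change was -0.78 ± 0.17 (SE, adjusted p = 0.0958 with edgeR and 0.000783 with DESeq2). Man2b1, lysosomal alpha-mannosidase, measured 69.5, 92.0 and 89.9 CPM against 130, 102 and 130 CPM in vehicle tumors, again without overlap (-0.52 ± 0.14, adjusted p = 0.127 with edgeR and 0.0143 with DESeq2). Glb1, the lysosomal beta-galactosidase, measured 36.5, 36.9 and 38.9 CPM with midostaurin and 46.8, 42.4 and 52.5 CPM with vehicle (-0.33 ± 0.10, adjusted p = 0.150). It overlaps Tmppe on the same strand, so the split of their reads is uncertain. Ctsa, the protective protein of beta-galactosidase and neuraminidase, and Sgsh, which removes sulfate from heparan sulfate, were also lower without overlap, at -0.38 ± 0.11 and -0.53 ± 0.17.

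Of the hydrolases, 3 went the other way without overlap, where 13.1% of all genes were higher without overlap. Gla (ENSMUSG00000031266, mm10 chromosome X, 134588149 to 134601125), which encodes alpha-galactosidase A, measured 43.0, 45.6 and 33.6 CPM in midostaurin tumors and 28.4, 28.9 and 22.9 CPM in vehicle tumors. Its log2 fold change was 0.61 ± 0.15 (adjusted p = 0.109 with edgeR and 0.00651 with DESeq2). Ctsl, a cysteine protease, measured 2216, 1911 and 2088 CPM with midostaurin and 1552, 1541 and 1820 CPM with vehicle (0.35 ± 0.11), and so gave much of the hydrolases' summed level. It overlaps the predicted gene Gm49230 on the same strand. Smpd1, acid sphingomyelinase, was the third, at 0.24 ± 0.09. The other 13 hydrolases, among them the cathepsins Ctsb, Ctsd, Ctsh, Ctss and Ctsz, overlapped between the groups, with fold changes of -0.34 to 0.17 on the log2 scale. Summed over the 21 genes, hydrolases reached 5167, 5288 and 5244 CPM in midostaurin tumors and 5404, 4614 and 5394 CPM in vehicle tumors, so the total overlapped while its parts shifted.

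The precursor genes differed from each other. Grn encodes progranulin, which is cut in the lysosome into granulins, and measured 308, 380 and 356 CPM in midostaurin tumors and 507, 459 and 468 CPM in vehicle tumors. The groups did not overlap, and the log2 fold change was -0.45 ± 0.10 (adjusted p = 0.0958 with edgeR and 0.000909 with DESeq2). Psap encodes the precursor of the saposins, cofactors of sphingolipid breakdown, and measured 1116, 1151 and 1191 CPM against 1188, 945 and 1122 CPM with vehicle, with overlap (0.09 ± 0.11). Its 95% interval ran from -0.16 to 0.34.

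All 7 genes of lysosomal membrane proteins and lipid transport had a fold change above 0, with a median of 0.28 on the log2 scale. At an unadjusted p below 0.05 there were 4 higher (10.5% of all genes), and DESeq2 called 4 higher (5.43%). Npc2, the soluble cholesterol carrier of the lumen, measured 395, 435 and 424 CPM in midostaurin tumors and 309, 303 and 347 CPM in vehicle tumors. Npc1, its membrane partner, measured 96.1, 97.8 and 78.4 CPM with midostaurin and 62.1, 70.8 and 54.2 CPM with vehicle. Neither gene's groups overlapped, and the log2 fold changes were 0.39 ± 0.09 and 0.55 ± 0.13. Lamp2, an abundant glycoprotein of the lysosomal membrane, measured 261, 295 and 249 CPM against 178, 205 and 219 CPM with vehicle (0.43 ± 0.11, adjusted p = 0.119 with edgeR and 0.00795 with DESeq2). Mcoln1, a calcium channel of the lysosome, measured 63.7, 69.8 and 62.5 CPM against 52.3, 54.7 and 55.1 CPM with vehicle (0.28 ± 0.07, adjusted p = 0.123 and 0.0264). Lamp1, the companion of Lamp2, differed by little but without overlap, at 756, 761 and 748 CPM with midostaurin and 676, 692 and 693 CPM with vehicle (0.14 ± 0.07). Cd63, a tetraspanin of late endosomes, and Cln3, a membrane protein lost in a childhood lysosomal disease, overlapped between the groups, at 0.17 ± 0.09 and 0.05 ± 0.14.

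All 6 proton pump genes also had a fold change above 0, with a median of 0.24 on the log2 scale. Of them 5 were higher at an unadjusted p below 0.05 (10.5% of all genes), and DESeq2 called 1 higher (5.43%). Atp6v1b2, the B2 subunit of the ATP-splitting sector, measured 174, 208 and 174 CPM in midostaurin tumors and 129, 150 and 133 CPM in vehicle tumors. That was a log2 fold change of 0.44 ± 0.10 (adjusted p = 0.108 with edgeR and 0.00433 with DESeq2). Atp6v0d1, a V0 subunit, measured 84.2, 93.8 and 87.0 CPM against 72.1, 77.0 and 76.5 CPM with vehicle (0.24 ± 0.07, adjusted p = 0.156). Atp6ap1, an accessory subunit, measured 219, 221 and 206 CPM against 190, 190 and 188 CPM with vehicle (0.19 ± 0.07, adjusted p = 0.192). Atp6v1h, the H subunit, measured 74.0, 78.0 and 74.7 CPM against 64.2, 71.8 and 55.6 CPM with vehicle (0.25 ± 0.10, adjusted p = 0.237). None of these 4 subunits overlapped between the groups. Atp6v1a, the catalytic subunit, overlapped at 0.30 ± 0.12, and Atp6v0a1 was level, at 39.2 ± 2.88 CPM with midostaurin and 39.3 ± 3.12 CPM with vehicle (mean ± SD, n = 3 each).

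Of the 10 autophagy genes, 8 had a fold change above 0, and the median was 0.24. Of the 8, 6 had an unadjusted p below 0.05 (10.5% of all genes were higher), and DESeq2 called 3 higher (5.43%). Sqstm1 (ENSMUSG00000015837, mm10 chromosome 11, 50199366 to 50210827) encodes p62, a receptor that carries cargo into autophagosomes and is broken down with it. It measured 740, 726 and 700 CPM in midostaurin tumors and 369, 587 and 498 CPM in vehicle tumors, with the vehicle tumors far more spread out. The log2 fold change was 0.58 ± 0.17 (adjusted p = 0.137 with edgeR and 0.0117 with DESeq2). Ulk1, the kinase that starts autophagy, measured 63.5, 54.1 and 56.2 CPM with midostaurin and 45.3, 48.4 and 39.1 CPM with vehicle (0.40 ± 0.11, adjusted p = 0.127 and 0.0358). Gabarapl1, a GABARAP protein, measured 140, 163 and 170 CPM against 97.9, 120 and 134 CPM with vehicle (0.43 ± 0.14, adjusted p = 0.158 and 0.0340). Map1lc3b, which encodes LC3B, measured 141, 146 and 139 CPM against 102, 118 and 128 CPM with vehicle (0.30 ± 0.10, adjusted p = 0.174 and 0.0639). None of these 4 overlapped between the groups, and Gabarapl2 did not either (0.22 ± 0.08). Gabarap overlapped at 0.25 ± 0.10. Becn1 and Uvrag, 2 genes of the nucleation complex, stayed level at 0.03 ± 0.07 and -0.03 ± 0.08. Wipi1, which binds the growing membrane, did too, at 0.04 ± 0.16. Map1lc3a, the scarce relative of Map1lc3b, was at -0.35 ± 0.19.

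The MiT factors had the smallest p of the 49 genes in Mitf (ENSMUSG00000035158, mm10 chromosome 6, 97807052 to 98021349). It measured 39.0, 54.7 and 43.9 CPM in midostaurin tumors and 26.9, 25.6 and 28.3 CPM in vehicle tumors, a log2 fold change of 0.77 ± 0.13 (adjusted p = 0.0841 with edgeR and 3.97e-05 with DESeq2). Tfe3 measured 87.1, 95.3 and 86.5 CPM with midostaurin and 65.4, 73.1 and 70.0 CPM with vehicle (0.37 ± 0.08, adjusted p = 0.0939 and 0.00251). Neither factor overlapped between the groups. Tfeb overlapped, at 26.7, 19.4 and 23.6 CPM with midostaurin and 19.9, 19.8 and 22.1 CPM with vehicle (0.18 ± 0.14). Mitf also serves melanocytes and osteoclasts. The 5 melanocyte markers summed to 0.149 to 0.509 CPM in midostaurin tumors and 0.278 to 1.57 CPM in vehicle tumors, and the 6 osteoclast markers to 6.72 to 50.1 and 4.12 to 46.0 CPM. Their part in the result was not tested.

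**Figure D2:**
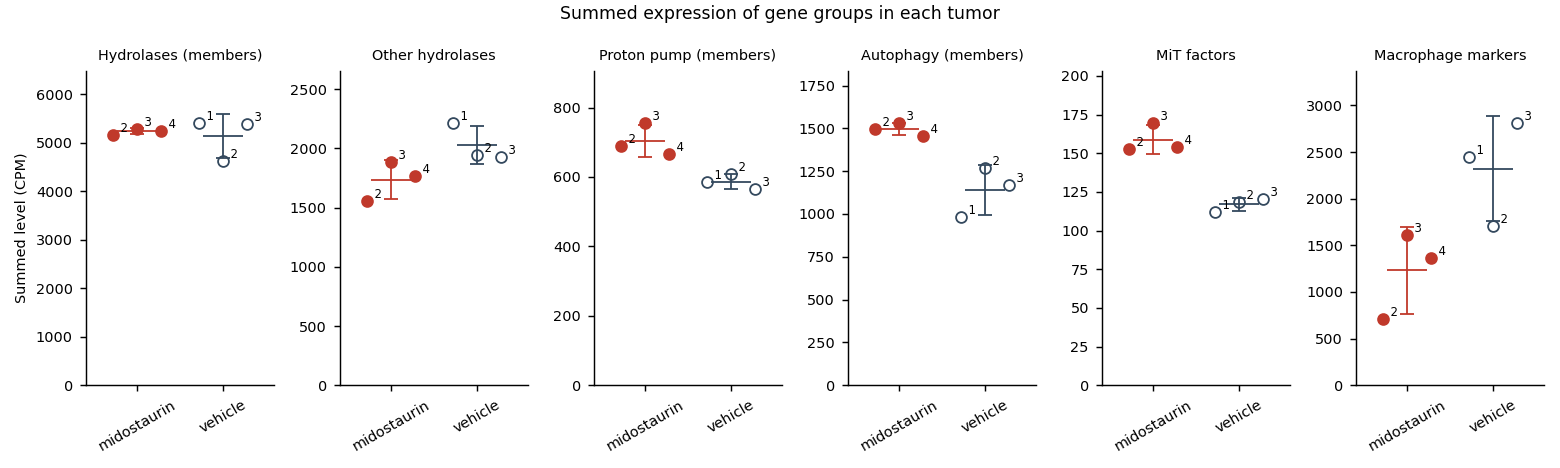
Summed CPM of gene groups in each tumor (points, numbered as in the table) with mean and SD over the 3 midostaurin tumors (filled) and the 3 vehicle tumors (open). The proton pump, autophagy and MiT sums lay higher in every midostaurin tumor than in any vehicle tumor, the hydrolases overlapped, and the macrophage markers lay lower in every midostaurin tumor.

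Macrophage markers were lower with midostaurin, as were Grn and 14 of the 21 hydrolases. The other 7 hydrolases and most genes of the membrane, pump, autophagy and MiT classes were higher. All 17 macrophage markers were lower in midostaurin tumors, where 8383 of all 16094 genes were lower, and their sums were given above. The median over the 17 was -0.84 on the log2 scale, and that over all genes was -0.01. Of the 17, 6 were lower at an unadjusted p below 0.05 (9.43% of all genes) and 9 without overlap (14.1%). None was called by edgeR (0.0124% of all genes were called lower), and 5 were called lower by DESeq2 (3.56%). None of the 17 was at 0 in any tumor. Fewer macrophages and less RNA per macrophage cannot be told apart in bulk tumors, and the part of either in the result was not tested. Within the 49 genes, Ctss and Ctsh stood at or near 0 in cultured cells, and in tumors they had fold changes of -0.34 ± 0.23 and -0.13 ± 0.32.

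Other genes of the same pathways were counted by class, from lists beyond the 49, at an unadjusted p below 0.05, which 10.5% of all genes passed higher and 9.43% lower. Of 31 other hydrolases tested, none was higher and 5 were lower, with a median log2 fold change of -0.03. Without a limit on p, 14 of the 31 were higher and 17 lower. Ctsc, which activates granule proteases, was lowest in p at -1.03 ± 0.23 (adjusted p = 0.0983 with edgeR and 0.000265 with DESeq2), followed by Fuca1, an alpha-fucosidase, at -0.38 ± 0.10 and Manba, a beta-mannosidase, at -0.64 ± 0.18. Of 18 other pump genes, 6 were higher and 1 lower, with a median of 0.17. Atp6v1d was at 0.43 ± 0.07 (adjusted p = 0.0841 and 0.000408), Atp6v0e2 at 0.67 ± 0.15 and Atp6v1e1 at 0.34 ± 0.08. Of 41 other autophagy genes, 8 were higher and none lower, with a median of 0.16. Among them Atg7 and Atg12, which act in the conjugation of LC3, were at 0.47 ± 0.09 and 0.54 ± 0.11, and Nrbf2, of the nucleation complex, at 0.36 ± 0.10. Of 28 other membrane and sorting genes, 5 were higher and 7 lower, with a median of -0.08. Ctns, the cystine exporter, and Slc36a1, an amino acid exporter, were at 0.56 ± 0.10 and 0.58 ± 0.11, and Cln6, which acts in the endoplasmic reticulum, at -0.47 ± 0.10. Of 16 nutrient sensing genes, 2 were higher and none lower, a share of higher genes near that of all genes, namely the folliculin partners Fnip1 at 0.58 ± 0.17 and Fnip2 at 0.59 ± 0.18, while Lamtor5, of the Ragulator complex, was at -0.23 ± 0.10, and the median was 0.10. edgeR and limma-voom called none of these genes at an adjusted p of 0.05. DESeq2 called 4 hydrolases lower, 3 pump and 4 autophagy genes higher, 4 membrane genes in each direction and 2 nutrient sensing genes higher. Of all genes it called 5.43% higher and 3.56% lower.

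In cultured cells, midostaurin and DMSO libraries were close in all classes. Of the 49 genes, 47 passed the filter on low counts. Ctsh was at 0 in all 6 cell libraries, and Ctss at 0 in DMSO cells and at 0 to 0.0820 CPM in midostaurin cells. With edgeR none of the 47 was called (0% of all 14538 genes tested) and none had an unadjusted p below 0.05, where 0.227% of all genes had one and were higher and 0.289% had one and were lower (0.516% together). DESeq2 called none of the 47, against 0.00688% of all genes in each direction (0.0138% together), and limma-voom called none, against 0.0138%. The groups overlapped for all 47, while 1.31% of all genes were higher and 1.15% lower without overlap (2.46% together). Fold changes ran from -0.26 for Map1lc3a to 0.14 for Sgsh on the log2 scale, with 25 of the 47 above 0, against 51.6% of all genes. That count rested on single libraries: it was 43 without midostaurin cell 1, 6 without midostaurin cell 2, 11 without midostaurin cell 3, 8 without DMSO cell 1 and 41 without DMSO cell 2. Since same-numbered cell libraries deviated together, a fit that blocked on the library number is given as well. This replicate block called none of the 47 genes (0.055% of all genes) and left 3 at an unadjusted p below 0.05 (4.33% of all genes), all with an adjusted p of 0.992. Atp6v1h measured 65.5, 92.0 and 88.9 CPM in midostaurin cells 1 to 3 and 73.2, 97.1 and 97.7 CPM in DMSO cells 1 to 3, lower in each of the 3 pairs, with a blocked log2 fold change of -0.12. Psap measured 482, 783 and 706 CPM against 489, 809 and 726 CPM with DMSO (-0.04), and Gusb 71.2, 70.1 and 60.5 CPM against 65.3, 70.0 and 54.5 CPM with DMSO (0.09). Over the 47 genes, the 95% intervals of the blocked fit lay between -0.54 and 0.30. Mitf and Sqstm1, which had the largest fold changes among the MiT factors and the autophagy genes in tumors, were at 0.06 and 0.02 in the blocked fit of the cells.

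**Figure D3:**
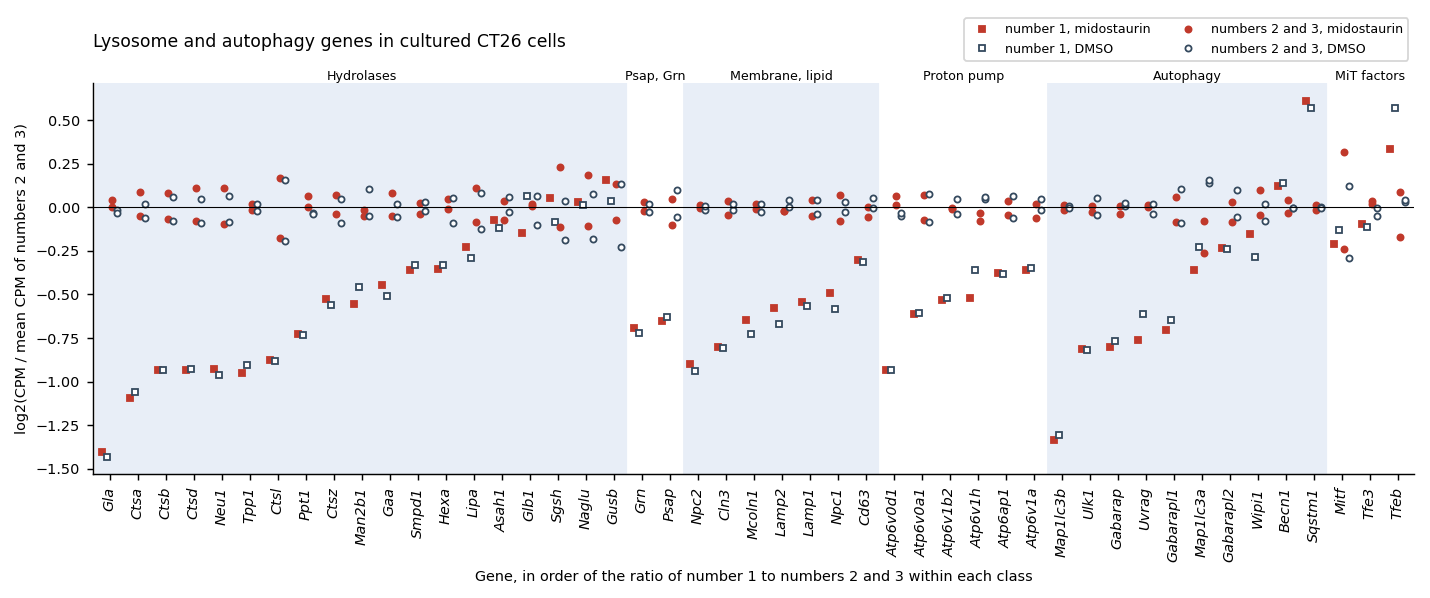
CPM of 47 genes in the 6 cell libraries, as log2 of the ratio to the mean of the 4 libraries numbered 2 and 3, by class. Squares, the libraries numbered 1, lie below the circles for most genes, and filled (midostaurin) and open (DMSO) symbols of 1 number lie close together.

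The larger spread in cells followed the number of the library, not the treatment. This split is given as a description, with no test, because it was known to set these libraries apart. Taking the 2 libraries numbered 1 over the 4 numbered 2 or 3, 21 of the 47 genes were at least 1.5-fold lower without overlap and 1 was at least 1.5-fold higher, against 10.4% lower and 10.9% higher of all genes (21.3% together). Without a limit on size, 38 were lower and 3 higher without overlap, where 65.1% of all genes had none. The median log2 ratio was -0.53 over the 47 genes and -0.00216 over all genes tested. Alpha-galactosidase led: Gla measured 48.2 and 47.4 CPM in the midostaurin and DMSO cells numbered 1, and 128, 132, 127 and 125 CPM in the other cells, a log2 ratio of -1.41. Map1lc3b measured 214 and 217 CPM in those numbered 1 and 533, 544, 542 and 536 CPM in the others (-1.32). It overlaps the predicted gene Gm20388 on the same strand. Ctsa measured 112 and 114 CPM in those numbered 1 and 253, 229, 241 and 228 CPM in the others (-1.07). Gla, Map1lc3b and Ctsa were the 3 of the 47 genes past a 2-fold difference, where 1150 of all 14538 genes were, a share no smaller.

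By class, the libraries numbered 1 were at least 1.5-fold lower without overlap for 8 of 19 hydrolases, both precursor genes, 4 of 7 membrane genes, 2 of 6 pump genes and 5 of 10 autophagy genes. They were for 10.4% of all genes. No MiT factor passed. Ctsb, Ctsd, Ctsl, Tpp1, Neu1 and Ppt1 were the other 6 hydrolases, and the major cysteine protease Ctsl measured 2210 and 2194 CPM in those numbered 1 against 4547, 3588, 4519 and 3539 CPM in the others. Asah1, Glb1, Gusb, Naglu and Sgsh had log2 ratios of only -0.09 to 0.10, so the hydrolases did not shift as one. In the pump, Atp6v0d1 had 89.5 CPM on average in those numbered 1 and 171 CPM in the others, and Atp6v0a1 80.3 and 123 CPM. Sqstm1 went against the rest: it measured 1028 and 997 CPM in those numbered 1 and 680, 666, 672 and 671 CPM in the others, 1.51-fold higher and just past the limit, while Lamp1, the nearest gene outside it, was at -0.55. Tfeb and Becn1 were higher without overlap too, at 0.44 and 0.13. The macrophage markers summed to 7.23 and 7.29 CPM in the midostaurin and DMSO cells numbered 1 and to 26.0, 24.3, 27.2 and 28 CPM in the others, most of it Cd68, a lysosomal membrane gene. Fibroblast markers also differed by library number, and all 5 that passed the filter were past 1.5-fold without overlap, against 21.3% of all genes. Col1a1, Col1a2 and Pdgfrb were higher in the libraries numbered 1, and Dcn and Pdgfra lower. Col1a1, a collagen gene, measured 266 and 250 CPM in those numbered 1 and 42.4, 40.1, 43.8 and 40.4 CPM in the others. Dcn, which encodes decorin, measured 0.826 and 0.304 CPM in those numbered 1 and 20.3, 17.0, 19.6 and 14.2 CPM in the others. The part of either list in the result was not tested.

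Vehicle tumors differed from DMSO cells in 27 of the 49 genes with edgeR, 6 higher (24.5% of all 16965 genes tested were called higher) and 21 lower (19.7% lower). DESeq2 called 7 higher and 21 lower (27.7% and 20.5%, 48.3% together) and limma-voom 25 (44.1%). At an unadjusted p below 0.05 there were 7 higher and 24 lower (28.4% and 23.6%, 52% together). Without overlap there were 7 higher and 22 lower (30.1% and 24.7%, 54.8% together), and 13 of the 49 had a fold change above 0 (52.6%). Each of these counts of higher genes includes Ctss and Ctsh. Both were at 0 in DMSO cells and passed the filter on low counts through the tumors alone, so they could only come out higher. Without vehicle tumor 3 edgeR called 16 of the 49, with 2 higher and 14 lower. In that fit 6536 of all 17573 genes were called, 3810 of them higher. Tissue and experiment cannot be told apart here, because cells and tumors were deposited as separate tables. The proton pump and autophagy were lower in tumors, with medians of -0.69 and -0.60 on the log2 scale, against 0.04 over all genes. In the pump, 5 of 6 genes fell and none rose, among them Atp6v0a1 at -1.46 ± 0.20 (adjusted p = 0.000257) and the catalytic Atp6v1a at -1.15 ± 0.15. In autophagy, 6 of 10 fell and none rose. Map1lc3b measured 102, 118 and 128 CPM in vehicle tumors and 217, 542 and 536 CPM in DMSO cells (-1.90 ± 0.38, adjusted p = 0.00262), and Uvrag fell by 1.23 on the log2 scale. Of the membrane class Mcoln1, Lamp1 and Cln3 fell, by 0.88, 0.85 and 0.72, and none rose.

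**Figure D4:**
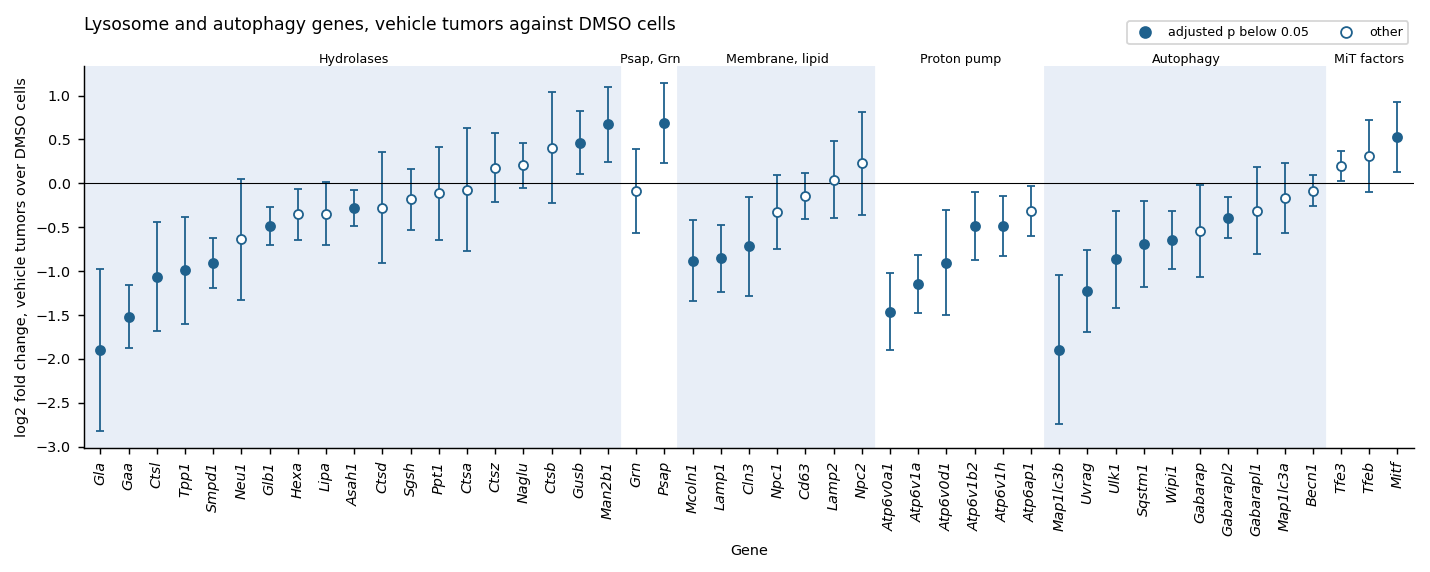
Log2 fold change of 47 genes in vehicle tumors over DMSO cells with the 95% interval of the edgeR fit, by class. Filled points passed an adjusted p of 0.05. Ctss and Ctsh, at 0 in DMSO cells, are left out. Proton pump and autophagy genes lie below 0, and hydrolases lie on both sides.

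Of the 21 hydrolases, edgeR called 4 higher and 7 lower, against 24.5% and 19.7% of all genes. The share of higher hydrolases was thus below that of all genes, although the 4 include Ctss and Ctsh, which could only come out higher. The protease Ctss, which trims the invariant chain in antigen-presenting cells, measured 269, 200 and 251 CPM in vehicle tumors and 0 in DMSO cells, at least 2810-fold higher against a floor of 3 counts per library. Ctsh measured 36.8, 20.4 and 19.1 CPM against 0, at least 298-fold higher. Both lay far above the cells in every tumor. Gusb and Man2b1 rose by 0.46 and 0.67 on the log2 scale. Psap measured 1188, 945 and 1122 CPM in vehicle tumors and 489, 809 and 726 CPM in DMSO cells (0.69 ± 0.21, adjusted p = 0.0201), and lost its call without vehicle tumor 1 (adjusted p = 0.0648) or vehicle tumor 3 (adjusted p = 0.0529). Gla measured 28.4, 28.9 and 22.9 CPM in vehicle tumors against 47.4, 127 and 125 CPM in DMSO cells (-1.90 ± 0.42, adjusted p = 0.00420), so DMSO cell 1 lay nearest to the tumors. Gaa, the acid alpha-glucosidase of glycogen breakdown, measured 94.2, 101 and 113 CPM against 232, 334 and 318 CPM in DMSO cells (-1.52 ± 0.16, adjusted p = 6.33e-05). Mitf rose, at 0.53 ± 0.18 (adjusted p = 0.0347), while Tfe3 and Tfeb did not pass with edgeR. Markers of other cell types were compared as well. All 17 macrophage markers rose, but only 6 of them passed the filter on low counts in cells. The others entered this fit through the tumors alone and could only come out higher. The 17 summed to 1703 to 2810 CPM in vehicle tumors and 7.29 to 28 CPM in DMSO cells, where 7 to 9 were at 0. The 6 T cell markers summed to 18.2 to 29.3 CPM in vehicle tumors and 0 to 0.171 CPM in DMSO cells, where 4 to 6 were at 0. None of them passed that filter in cells, so they entered this fit through the tumors alone and could only come out higher. All 4 endothelial markers rose, at 51.5 to 105 CPM in vehicle tumors and 0.101 to 0.626 CPM in DMSO cells. Only 1 of the 4 passed that filter in cells, and the others could only come out higher. Of 6 osteoclast and 11 neutrophil markers, 5 and 6 were tested. edgeR called 4 of each list higher, against 24.5% of all genes, and limma-voom called 2 and 0, against 44.1%. In cells 1 and 2 passed that filter, so the others tested entered this fit through the tumors alone and could only come out higher. Of 6 fibroblast markers, which the cultured cells also expressed, 2 rose, against 24.5% of all genes. These 6 summed to 1617 to 3303 CPM in vehicle tumors and 839 to 1567 CPM in DMSO cells. The part of these cell types in the result was not tested.

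Whether the response to midostaurin differed between tumors and cells was tested as the fold change in tumors minus that in cells. With edgeR no gene of the 49 was called, where 1 of all 16965 genes was (0.00589% higher and 0% lower), and DESeq2 (0.383% higher and 0.2% lower, 0.584% together) and limma-voom (0.00589%) called none either. Ctss and Ctsh, at or near 0 in cells, entered this fit through the tumors alone, so their fitted differences say nothing about the response in cells and are left out of the counts that follow. Of the other 47, 29 had a value above 0 (48% of all genes). At an unadjusted p below 0.05, Tfe3 and Mitf were higher and Gusb and Sgsh lower (3.47% and 2.61% of all genes, 6.08% together). Single libraries moved such counts: over the 49 genes with Ctss and Ctsh, 2 were higher and 3 lower, against 8 and 2 without DMSO cell 1, 3 and 5 without midostaurin cell 1, 1 and 2 without DMSO cell 2, and 1 and 3 without midostaurin tumor 3. When cell libraries were blocked by number, 24 genes reached that level, 18 higher and 6 lower (14.7% of all genes in either direction), and still none was called (0.0943% of all genes), the smallest adjusted p being 0.126. Gusb had the smallest p, with a difference of -0.88 ± 0.23 on the log2 scale, its fold change being lower in tumors (adjusted p = 0.517, and 0.126 with the block). Sgsh was at -0.67 ± 0.22 (adjusted p = 0.663, and 0.188 with the block), and Tfe3 at 0.32 ± 0.11 (adjusted p = 0.695, and 0.166 with the block). A difference in response between tumors and cells was thus not shown for any of them.

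Levels between genes were set side by side as CPM per kilobase of exon. In midostaurin and vehicle tumors the highest of the 49 was Psap, at 420 ± 13.7 and 395 ± 45.7 CPM per kb (mean ± SD, n = 3 each). In vehicle tumors Lamp1 (257 ± 3.45), Ctsl (252 ± 24.4), Ctsd (233 ± 41.9), Ctsz (202 ± 12.0) and Ctsb (196 ± 31) followed, and neighbours in this order lay within each other's spread except Psap and Lamp1. In midostaurin tumors Ctsl stood above Lamp1, at 319 ± 23.6 and 282 ± 2.32. In midostaurin and DMSO cells Ctsl led, at 531 ± 181 and 527 ± 180, ahead of Lamp1 at 464 ± 94.9 and 464 ± 98.9, with spreads set by the libraries numbered 1. In vehicle tumors Mitf, Lipa, Uvrag, Tfeb and Sgsh were the 5 lowest. Sgsh had 2.15 ± 0.277 and 3.11 ± 0.491 in midostaurin and vehicle tumors, the lowest of the 49 in both.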

How the data were processed

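Polyadenylated RNA was sequenced from 3 midostaurin tumors, 3 vehicle tumors, 3 midostaurin cell samples and 3 DMSO cell samples. The authors deposited 1 table of counts per gene for tumors and 1 for cells. Per the submitters' processing notes, FastQC 0.11.2, Bowtie2 2.3.4, RSEM and mm10 were used, while the annotation and the strand setting are not given in the sources used here. Counting is thus not known to use strand, and 9 of the 49 genes overlap another gene on the same strand and 19 one on the opposite strand, so their reads may be shared.

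The deposited counts were tested with edgeR 4.0.16 (quasi-likelihood F-test, TMM factors, filterByExpr, Benjamini-Hochberg adjustment over all genes tested, calls at 0.05) in R 4.3.3, checked on simulated data. Tumors and cells were fitted apart, and all 12 libraries together for vehicle tumors over DMSO cells and for the difference in response. Intervals are 95% intervals of the edgeR fit. Alternatives were DESeq2 1.42.0, limma-voom 3.58.1, other scalings, no filter, a replicate block and leaving out each library. Gene positions are from GENCODE on mm10. Columns were matched to samples by name, and the tumor column numbered 4 was taken by its group alone.

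Cell libraries of the same number deviated together from their group means over 10416 genes, with correlations of 0.961, 0.879 and 0.847, so the numbers were taken as pairs in cells. Values in every library were given, by rule, for up to 4 genes of a class with the smallest p in tumors (2 MiT factors), the 3 with the smallest blocked p in cells, the 3 with the largest ratio between library numbers, the 3 largest rises and falls in vehicle tumors over DMSO cells, and the 3 with the smallest p for the difference in response; each further list gave the 3 with the smallest p. Other genes of the 49 were described after their values were seen. The members and lists were chosen with earlier results of these data known.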

Additional observations from a re-analysis of the deposited data

How the results depend on the processing

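With DESeq2 in place of edgeR, 16 of the 49 genes were called between midostaurin and vehicle tumors, where edgeR called none, and the cause was not tested. In cells, single libraries turned the sign of small fold changes of genes that were not called. Atp6v1h ran from -0.25 to 0.0174 on the log2 scale over the fits that left out 1 library (0.0174 without midostaurin cell 1), Psap from -0.22 to 0.14 (0.14, 0.11 and 0.02 without midostaurin cell 1, DMSO cell 2 and DMSO cell 3) and Gusb from -0.00592 to 0.17 (-0.00592 without DMSO cell 3). In vehicle tumors over DMSO cells, leaving out 1 library gave 16 to 30 called genes of the 49. Over all genes the same fits called 6007 to 8072, with 17445 to 17590 genes tested. The median ran from -0.89 to -0.59 for the proton pump and from 0.22 to 0.51 for the MiT factors. At 2-fold in place of 1.5-fold, 3 of the 47 genes differed between cell libraries numbered 1 and the others. Of all 14538 genes, 1150 did, so the share of the 47 was no larger.

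The replicate block in cells called 0 of the 47 genes, and 0 of the 49 in the difference between tumors and cells. Numbers were not taken as pairs in tumors, where the correlations for numbers 2 and 3 were 0.146 and -0.184. There a replicate block was fitted to the tumors numbered 2 and 3 alone, so its counts also rest on fewer tumors than the main fit. It called 0 genes and left 10 of the 49 higher and 4 lower at an unadjusted p below 0.05. Of all 16157 genes in that fit, 1604 reached this level in either direction. The block changed no other call. No paired analysis was possible because tumors and cells share no replicates for vehicle tumors over DMSO cells. With 3 samples a group, many small differences can go undetected.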
